A study of Mus musculus with 18 samples.

Results

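The keratin genes of basal and stratified epithelium, *Krt5*, *Krt14*, *Krt15*, *Krt17*, *Krt6a* and *Krt75*, were followed through sorted cells of the mouse airway and lung. The 6 genes were chosen by symbol and matched to the Entrez identifiers of the count files, which hold 27179 genes, 52 of them type I or type II keratins of the lists used here. RNA was sequenced from 6 sorted populations of untreated C57BL/6 mice, each of them covered by 3 of the 18 libraries. Tracheas of 3 mice gave basal stem cells (BSCs), gated on surface NGFR, and a non-basal population that lacked it. The other 4 populations came from the lungs of 3 further mice, namely CD24hi airway cells, labelled as rich in ciliated cells, CD24lo airway cells, labelled as rich in club cells, EpCAM-negative cells, labelled as non-epithelial, and alveolar cells. The airway gates were EpCAM-positive and CD104-positive, and the alveolar gate was EpCAM-positive and CD104-low. *Ngfr* and the integrin genes of the CD104 gate were thus tied to the sorts, whereas no keratin was. The study's methods give the C57BL/6 mice as males aged 8 to 12 weeks. Trachea and lung came from different mice, so that organ and animal cannot be told apart from cell type in any comparison between the 2 organs.

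Keratins are the intermediate filament proteins of epithelial cells. A filament is built from pairs of an acidic type I chain and a basic type II chain, so that neither type can form a filament alone. *Krt5* (type II) and *Krt14* (type I) form the pair of the basal layer of stratified epithelia and are the standard markers of tracheal basal cells. *Krt15* (type I) is a further basal layer keratin, *Krt17* (type I) is found in basal cells, appendages and wounded skin, *Krt6a* (type II) is induced with its partners *Krt16* and *Krt17* by injury, and *Krt75* (type II) is best known from the companion layer of the hair follicle. Luminal and alveolar cells are instead built on the simple keratins *Krt8*, *Krt18*, *Krt19* and *Krt7*.

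In GRCm38.p6, the build used by the study (mm10), the 3 type II genes lie on chromosome 15 and the 3 type I genes on chromosome 11, all on the minus strand. *Krt5* (Entrez 110308) spans chr15:101707069-101712905, *Krt6a* (16687) spans chr15:101689928-101694305 and *Krt75* (109052) spans chr15:101563343-101573904. *Krt14* (16664) spans chr11:100203162-100207510, *Krt15* (16665) spans chr11:100131759-100135949 and *Krt17* (16667) spans chr11:100256215-100261029. Neighbouring keratins arose by duplication, and parts of their coding sequences are alike enough that a read can match more than 1 gene. The next 2 sets show how alike and how different the members can be over a short stretch. They were taken from GENCODE M21 transcripts and numbered from the first base of the start codon. In the first set, capitals mark bases that differ from *Krt14*.
Krt14, coding bases 1145 to 1204: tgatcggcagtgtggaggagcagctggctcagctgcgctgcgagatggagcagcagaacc
Krt17, coding bases 1034 to 1093: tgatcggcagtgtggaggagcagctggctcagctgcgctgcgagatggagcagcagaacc
Krt16, coding bases 1121 to 1180: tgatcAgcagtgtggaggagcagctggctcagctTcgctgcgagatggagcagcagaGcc
Krt15, coding bases 1079 to 1138: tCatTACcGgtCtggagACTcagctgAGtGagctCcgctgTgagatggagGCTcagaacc
In the second set, capitals mark bases that differ from *Krt6a*.
Krt6a, coding bases 304 to 363: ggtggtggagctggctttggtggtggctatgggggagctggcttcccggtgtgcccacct
Krt5, coding bases 334 to 393: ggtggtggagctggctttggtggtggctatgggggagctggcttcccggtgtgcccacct
Krt6b, coding bases 304 to 363: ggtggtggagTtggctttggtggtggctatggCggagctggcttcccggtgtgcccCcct
Krt75, coding bases 298 to 357: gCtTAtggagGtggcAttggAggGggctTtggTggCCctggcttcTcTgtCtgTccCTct

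The stretches of *Krt14* and *Krt17* are identical over 60 bases, as are those of *Krt6a* and *Krt5*, whereas *Krt15* and *Krt75* each differ at 17 of the 60 positions. Over the whole coding sequence, *Krt6a* was 97.8% identical to *Krt6b*, 80.5% to *Krt5* and 74.9% to *Krt75*. *Krt14* was 86.2% identical to *Krt16*, 82.8% to *Krt17* and 71.3% to *Krt15*. The reads of the study were 100 bases long, and the share of 100-base windows of a transcript that also occur in another gene was 34% for *Krt6a*, 2.88% for *Krt14* and 2.38% for *Krt5*. It was 0 for *Krt15*, *Krt17* and *Krt75*. How reads that matched several genes were assigned is not given in the sources used here, so the level of *Krt6a* is uncertain to the extent that its reads are shared. The other genes that hold its shared windows are *Krt6b*, *Krt5*, Gm5414 and Gm5478. *Krt6b* was at 1.30 RPKM in BSCs, but *Krt5* had 359772 reads there against 9264 for *Krt6a*, and the part of such shared reads in the level of *Krt6a* was not tested.

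RefSeq promoter windows, from 250 bases before to 50 after the start, were found for 3 of the 6 genes. That of *Krt14* lies inside the gene as RefSeq annotates it and is not printed. The 100 bases before the start of *Krt5* and *Krt75*, the remaining windows, follow in the direction of transcription. Like the other members, both genes were higher in BSCs than in every other population. In *Krt5* the capitals mark a match to part of the p53-family motif, and the complete motif was not searched. In *Krt75* the capitals mark GGGCGG, the Sp1 box, on the opposite strand.
Krt5, chr15:101712906-101713005, minus strand: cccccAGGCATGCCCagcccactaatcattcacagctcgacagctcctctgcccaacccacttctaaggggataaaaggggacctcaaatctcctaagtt
Krt75, chr15:101573905-101574004, minus strand: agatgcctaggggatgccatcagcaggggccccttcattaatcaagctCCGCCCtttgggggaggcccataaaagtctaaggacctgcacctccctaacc

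On both strands of the 32851 RefSeq promoter windows, the same part of the p53-family motif was held by 8.36% and GGGCGG by 35.7%. TATAAA (13.6% of windows), the AP-1 motif TGANTCA (7.81%) and the AP-2 motif GCCNNNGGC (16.6%) were not matched in the windows of the 3 genes. Only these exact patterns were searched, and both printed stretches hold ATAAAA, a near match to TATAAA. These matches describe letters and not binding.

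Tracheal libraries held between 29317215 and 32993621 counted reads and lung libraries between 9811503 and 13208897, so that 1 read weighed more in the lung. The tracheal totals exceed the number of reads per mouse sample given in the study's methods, and the sources used here do not say what accounts for it. Levels are given as RPKM, reads scaled to gene length in kilobases and to library size, with library sizes adjusted by TMM. Differences are log2 fold changes from edgeR's quasi-likelihood test on the counts, in 1 fit of all 18 libraries, and a gene is called when its Benjamini-Hochberg adjusted p, over the 17989 genes that passed a filter on low counts, is under 0.05. All 6 keratins passed that filter. The filter asks for 3 libraries, so it could be met through BSCs alone. Labels were followed by the marker genes. Summed over 8 basal cell markers, BSC libraries held 1765 to 1833 RPKM against 286 to 354 RPKM in non-basal tracheal cells. The 8 include *Ngfr*, the gene of the gate, and *Aqp3* made up most of the BSC sum, at 1056 RPKM against 161 RPKM in non-basal cells. The ciliated, club, alveolar type 2 and fibroblast marker sums were highest in CD24hi, CD24lo, alveolar and EpCAM-negative cells in turn. The p-values rest on a spread pooled over all populations, with libraries of the same mouse treated as independent. They concern only these samples of 3 mice for each organ.

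*Krt5*, the type II basal keratin, was at 1567, 1571 and 1478 RPKM in the 3 BSC libraries. In the non-basal cells of the same mice it was at 126.2, 103.4 and 129.96 RPKM. The 2 tracheal populations were far apart in every mouse. CD24lo airway cells came next, at 31.95, 59.99 and 36.53 RPKM, followed by CD24hi cells at 3.41, 3.62 and 3.74 RPKM. EpCAM-negative cells held 5 or 6 reads a library and alveolar cells 3, 20 and 7, and the RPKM ranges of these last 2 populations overlapped. The order of *Krt5* was thus BSC, non-basal, CD24lo and CD24hi, with no overlap between neighbours, and then a pair of populations near 0.

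*Krt14*, the type I partner of *Krt5* in stratified epithelium, stood at 69.9, 91.0 and 95.6 RPKM in BSCs, far below *Krt5* in the same libraries. Non-basal tracheal cells were at 4.91, 3.96 and 5.00 RPKM, again without overlap. CD24lo cells held 8, 17 and 10 reads and CD24hi cells 5, 3 and 4. EpCAM-negative and alveolar cells held 5 and 4 reads over 3 libraries each, and their RPKM ranges overlapped that of CD24hi cells.

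*Krt15* was the most abundant of the 6 in BSCs, at 2593, 2412 and 2236 RPKM. It was also the one that stayed high in the non-basal population, at 1379, 1023 and 1056 RPKM. The lowest BSC library was still well above the highest non-basal library. In CD24lo cells *Krt15* was at 71.7, 115.2 and 102.8 RPKM and in CD24hi cells at 8.51, 8.44 and 9.97 RPKM. EpCAM-negative and alveolar libraries held between 5 and 19 reads and overlapped.

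*Krt17*, a keratin of basal cells and of wounded epithelium, was at 508.9, 679.2 and 573.3 RPKM in BSCs and at 44.7, 50.5 and 58.6 RPKM in non-basal cells. In CD24lo cells it was at 23.7, 29.8 and 27.05 RPKM, closer to the non-basal tracheal level than any of the other 5 keratins. CD24hi cells were at 3.10, 3.78 and 4.22 RPKM. Alveolar cells held 7 reads in all and EpCAM-negative cells 3.

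*Krt6a*, the injury-induced type II keratin, was at 25.4, 45.9 and 43.7 RPKM in BSCs and at 6.38, 5.55 and 6.97 RPKM in non-basal cells. CD24lo cells held 4, 8 and 7 reads, CD24hi cells 0, 3 and 1, and the alveolar libraries 1 read in all. No read was counted in the 3 EpCAM-negative libraries, which allows a level of up to 0.0352 RPKM when 3 reads over the group are taken as the limit, for counting error only. *Krt75*, the companion layer keratin, was at 28.01, 31.61 and 29.58 RPKM in BSCs and at 3.14, 2.69 and 3.70 RPKM in non-basal cells. It was all but absent from the lung, with 4 reads in CD24lo cells, 1 in CD24hi cells and 0 in EpCAM-negative and alveolar cells, for which the same limit is 0.0244 and 0.0286 RPKM. In both genes the tracheal populations did not overlap.

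**Figure D1:**
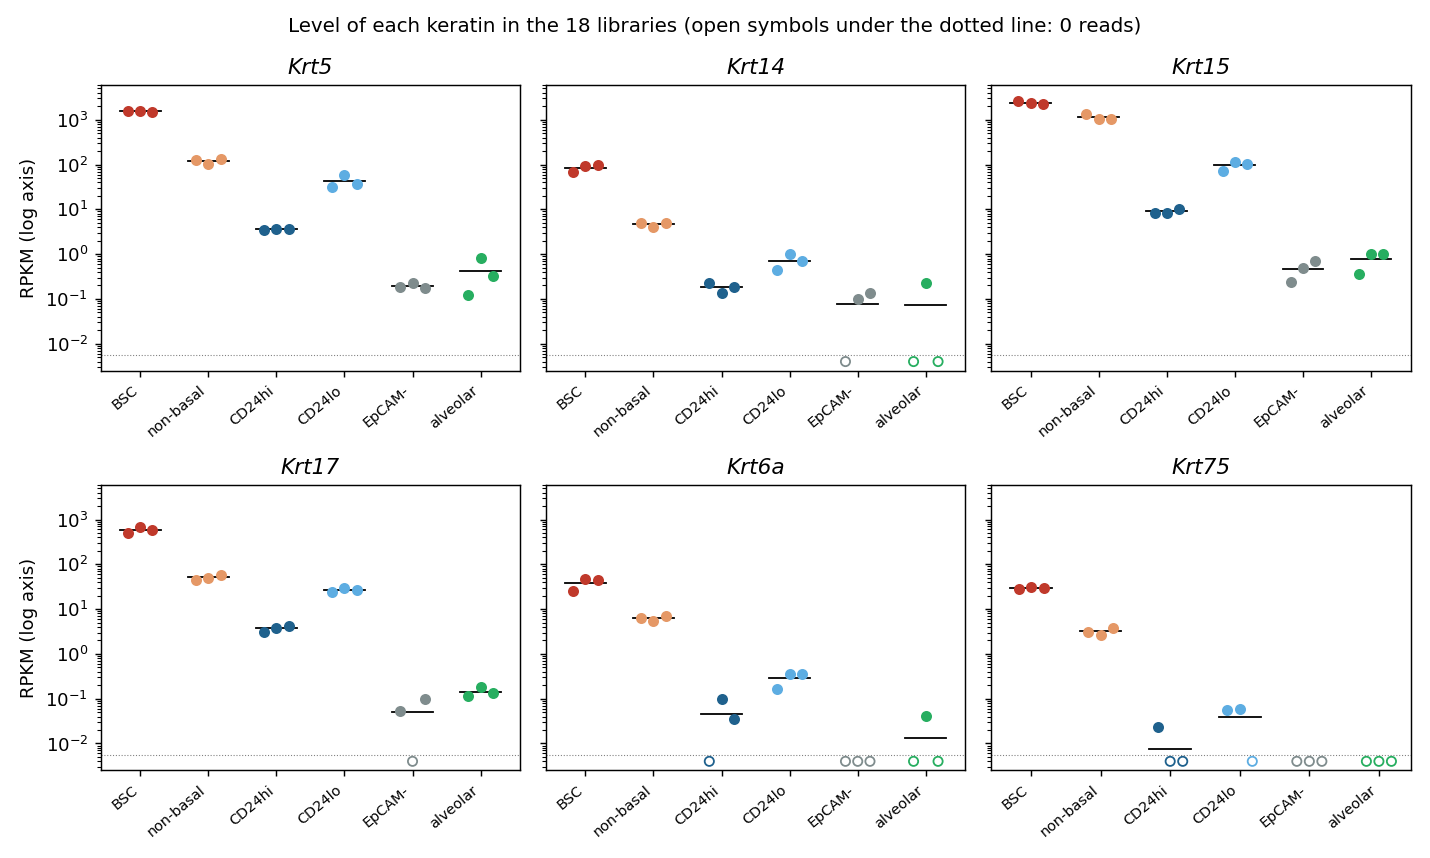
RPKM of each keratin (log axis) in the 18 libraries, by population, with points for libraries, bars for the mean of 3 libraries and open symbols for libraries with 0 reads. In all 6 panels the 3 BSC libraries lie above every other library, and only *Krt15* has non-basal tracheal libraries above 1000 RPKM.

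The BSC libraries also differed among themselves. The library of mouse 1 was the lowest for *Krt14*, *Krt17*, *Krt6a* and *Krt75* and, at 25.4 against 45.9 and 43.7 RPKM, most clearly so for *Krt6a*. *Krt16*, which is induced together with *Krt6a* in wounded skin, was likewise lowest in mouse 1, at 1.67 RPKM against 5.99 and 9.29 RPKM. *Krt15* was highest in this library, and *Krt5* differed between the 3 by a standard deviation of only 52.8 RPKM around a mean of 1538 RPKM. The library of mouse 1 was also the lowest of the 3 BSC libraries for all 10 genes of the filament linkers and 8 of 10 keratin regulators described further on, and the highest for all 4 club cell markers.

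The comparison of BSCs with the NGFR-negative cells of the same tracheas asks how far each keratin separates the basal from the luminal cells of 1 epithelium. All 6 were called higher in BSCs, against 48.2% of all genes tested that were called in either direction and 21.9% called higher in BSCs. In none of the 6 did the populations overlap, but the share of all genes without overlap is not given. The log2 fold change was 4.21 for *Krt14* (SE 0.21), 3.68 for *Krt5* (SE 0.24), 3.52 for *Krt17* (SE 0.15) and 3.23 for *Krt75* (SE 0.16). It was smaller for *Krt6a*, at 2.60 (SE 0.21), and smallest for *Krt15*, at 1.07 (SE 0.20, adjusted p = 0.000305). The adjusted p of the other 5 was at most 7.87e-08. In bulk RNA, fewer cells that express a keratin and less of it in each cell cannot be told apart. Scaling decided much of the balance over all genes, which was 3948 higher to 4720 lower after TMM but 7780 to 2989 on plain library sizes.

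Taken within each mouse, non-basal cells held 7.81% ± 1.13 (SD, n = 3) of the BSC level of *Krt5*, 8.81% ± 1.39 of *Krt17*, 5.53% ± 1.36 of *Krt14* and 10.7% ± 2.04 of *Krt75*. These 4 keratins therefore sat near the level of the basal transcription factor gene *Trp63*, at 12.6% ± 3.24, and of *Snai2*, at 9.05% ± 3.00. For *Krt6a* the share was 17.7% ± 6.71, with 25.1% in mouse 1 and 12.1% and 15.9% in mice 2 and 3. *Krt15* stood apart at 47.6% ± 5.37, with 53.2%, 42.4% and 47.2% in the 3 mice. Among the basal markers the nearest value was that of *Pdpn*, which encodes the surface protein T1α, at 43.4% ± 1.85. The integrin genes *Itga6* and *Itgb4*, which anchor basal cells to the basement membrane, were at 23.7% ± 0.892 and 18.7% ± 1.86.

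**Figure D2:**
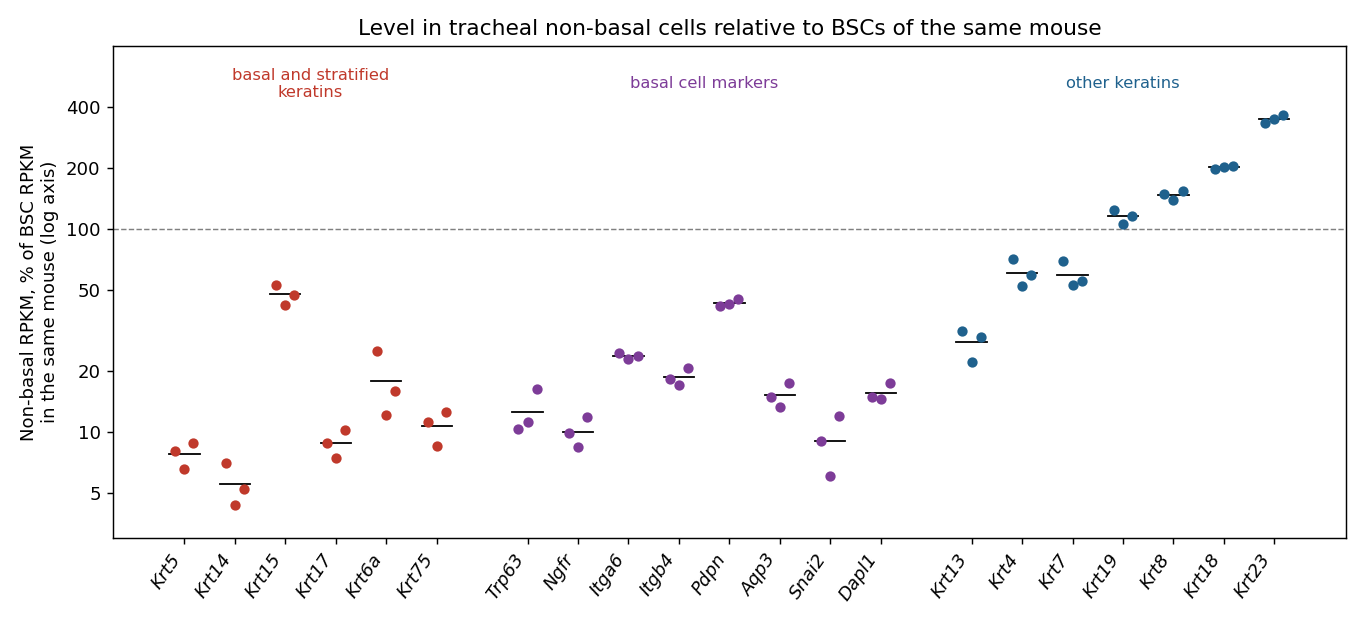
RPKM in non-basal tracheal cells as a percent of that in the BSCs of the same mouse (log axis), for the 6 keratins, 8 basal cell markers and 7 other keratins, with points for 3 mice, bars for their mean and a dashed line at 100%. *Krt15*, with a mean of 47.6%, lies well above the other 5 keratins, whose means run from 5.53% to 17.7%.

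Other cell types differed between the same 2 populations. All 4 club cell markers and 5 of 6 ciliated cell markers were lower in BSCs. Of all genes, 48.2% were called in either direction, of which 21.9% were higher in BSCs and the remainder of the 48.2% lower. The summed level of the club cell markers was 9602 to 11615 RPKM in BSCs against 83004 to 92219 RPKM. The club genes differed in size, with *Scgb1a1* at 1309 against 60185 RPKM but *Cyp2f2* at 7105 against 14268 RPKM. Of the 5 fibroblast markers, 4 were lower in BSCs, with *Col1a1* at 0.0200 RPKM, but *Dcn*, which encodes decorin, was higher, at 161 against 31.9 RPKM. The endothelial marker *Cdh5* had no read in BSCs. Markers of myoepithelial cells, a second *Krt5*- and *Krt14*-positive cell type of the airway glands, were low in BSCs, with *Acta2* at 0.279, *Myh11* at 0.0239, *Oxtr* at 0 RPKM, *Cnn1* at 0.0519 RPKM and *Tagln*, the highest of these 5, at 2.80 RPKM (474 reads). The part of luminal cells in the differences between the 2 populations was not tested.

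The proportions of the 6 keratins to each other were compared as ratios of RPKM, a measure chosen after their levels had been seen. There were 1.57 ± 0.0764 (SD, n = 3) *Krt15* transcripts for each *Krt5* transcript in BSCs and 9.65 ± 1.42 in non-basal cells. The 3 ratios were 1.66, 1.54 and 1.51 in BSCs and 10.9, 9.90 and 8.13 in non-basal cells, without overlap (two-sided exact permutation test, p = 0.1, the smallest that 3 against 3 libraries allow). CD24hi cells, at 2.50 ± 0.168, and CD24lo cells, at 2.33 ± 0.452, lay between the tracheal populations and overlapped each other. A *Krt15* to *Krt5* ratio near 10 was thus seen in non-basal tracheal cells and in neither airway population of the lung.

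For *Krt17* to *Krt5*, by contrast, BSCs at 0.382 ± 0.0540 and non-basal cells at 0.431 ± 0.0693 overlapped (exact permutation p = 0.4). Within each mouse, however, the ratio was higher in non-basal cells, at 0.354, 0.488 and 0.451 against 0.325, 0.432 and 0.388 in BSCs. This paired comparison, added after the data were seen, gave an exact p of 0.25, the smallest that 3 mice allow. The ratio was higher in the lung, at 0.660 ± 0.141 in CD24lo cells and 1.03 ± 0.111 in CD24hi cells, and neither overlapped BSCs. For *Krt14* to *Krt5* the ratio was 0.0557 ± 0.0102 in BSCs and 0.0385 ± 0.000299 in non-basal cells, without overlap. In CD24lo cells it was 0.0165 ± 0.00255, on 8 to 17 *Krt14* reads a library. The CD24hi value, 0.0515 ± 0.0148, rests on 3 to 5 such reads. Over all 8 ratios and 6 pairs of populations, 48 comparisons were made, and after Benjamini-Hochberg adjustment no exact p fell under 0.12.

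**Figure D3:**
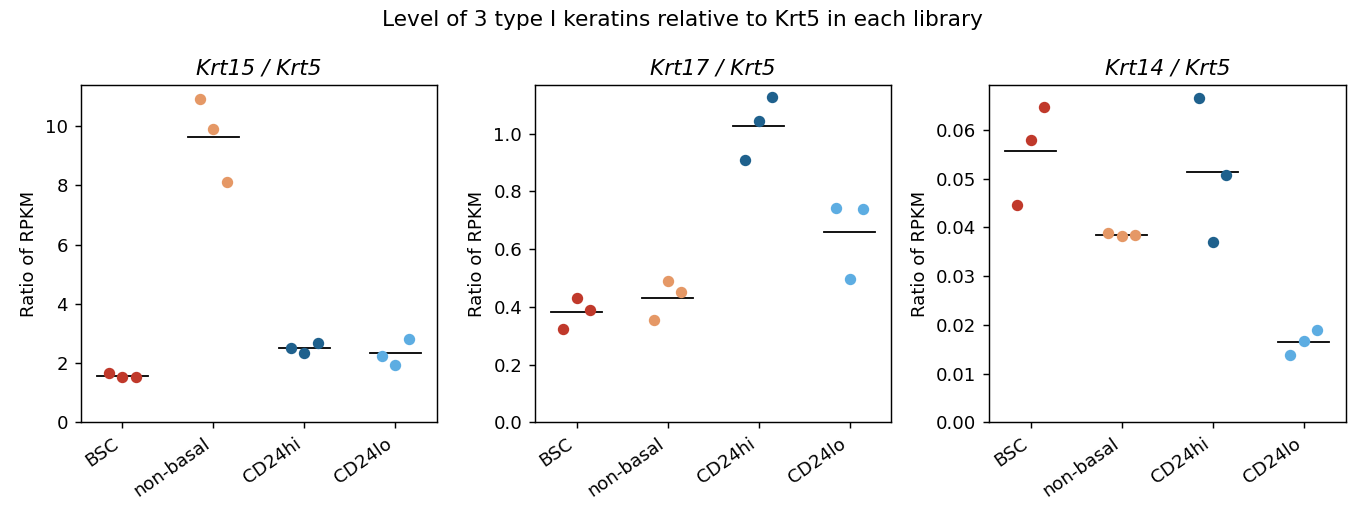
Ratio of the RPKM of *Krt15*, *Krt17* and *Krt14* to that of *Krt5* (linear axes from 0) in BSC, non-basal, CD24hi and CD24lo libraries, with points for libraries and bars for means. The *Krt15* to *Krt5* ratio is 8.13 or more in non-basal tracheal libraries and 2.81 or less in the others.

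The 6 keratins were next set against the whole keratin repertoire, as shares of the summed RPKM of type I or type II keratins. In BSCs the 3 type I members together made up 65.3% ± 0.192 (SD, n = 3) of type I transcripts, and the 3 type II members 56.9% ± 0.616 of type II transcripts. *Krt15* alone held 51.1% ± 2.15 of the type I pool and *Krt5* 54.4% ± 0.769 of the type II pool. *Krt14*, the textbook partner of *Krt5*, held 1.82% ± 0.358 of the type I pool, less than *Krt19* (23.4%), *Krt17* (12.4%), *Krt18* (5.95%) and *Krt13* (3.45%). The transcripts of tracheal BSCs thus paired a *Krt5*-rich type II pool with a type I pool led by *Krt15*.

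In non-basal cells the type II members made up 10.7% ± 1.33 of their pool and the type I members 35.9% ± 2.77 of theirs. *Krt8* led the type II pool there, at 47.8%, with *Krt5* at 9.90% ± 1.22. *Krt19*, at 38.1%, and *Krt15*, still at 34.2% ± 2.97, led the type I pool. The difference between BSCs and non-basal cells was 44.5 percentage points for *Krt5*, 16.9 for *Krt15*, 10.9 for *Krt17*, 1.68 for *Krt14*, 0.838 for *Krt6a* and 0.790 for *Krt75*. Each reached the smallest possible p of 0.1 in a two-sided exact permutation test. That test treated the libraries as unpaired, although both populations came from the same mice.

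In the lung the members were minor keratins. They made up 13.2% ± 1.96 of type I and 8.87% ± 2.46 of type II transcripts in CD24lo cells, where *Krt15* held 10.2%, *Krt5* 8.80% and *Krt17* 2.86%. In CD24hi cells the shares were 1.33% ± 0.277 and 0.427% ± 0.0468, and in alveolar cells 0.355% ± 0.172 and 0.181% ± 0.156. EpCAM-negative cells had little keratin of any kind, with 19.3 RPKM of type I transcripts against 4726 RPKM in BSCs. The ratio of type I to type II transcripts was 1.67 ± 0.0298 in BSCs, 2.77 ± 0.0564 in non-basal cells, 1.95 ± 0.129 in CD24lo cells and 1.15 ± 0.0524 in CD24hi cells.

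**Figure D4:**
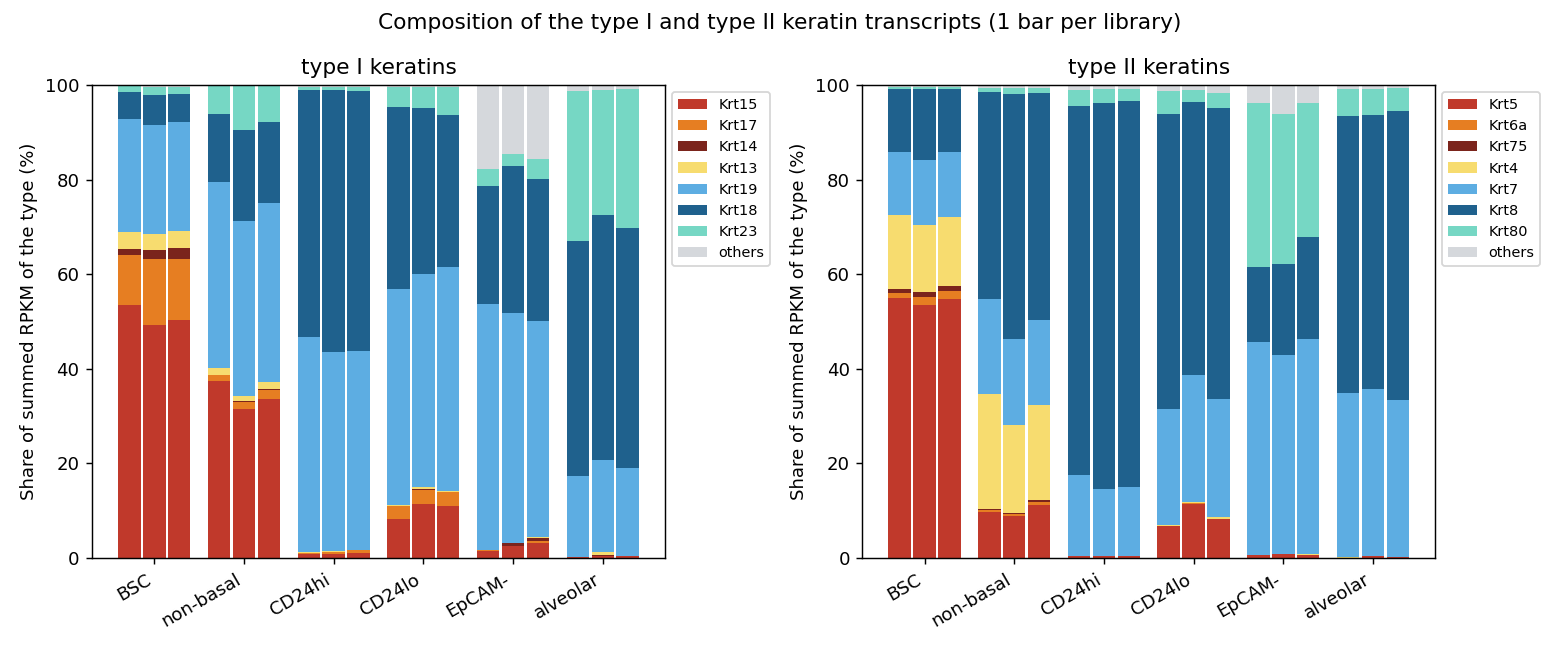
Share of the summed RPKM of type I (left) and type II (right) keratins held by single keratins, in percent, with 1 bar per library and members in red, orange and dark red at the bottom. The members fill 65.3% and 56.9% of the 2 pools in BSCs on average and 1.33% and 0.427% in CD24hi cells.

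The comparisons of BSCs with the lung populations ask how strictly each keratin belongs to the trachea. All 6 were called higher in BSCs than in CD24hi, CD24lo, EpCAM-negative and alveolar cells. Of all genes, 32.7%, 28.9%, 33.7% and 30.5% in turn were called higher in BSCs (72%, 63.8%, 70.3% and 66.1% in either direction). The libraries did not overlap for any of the 6, but the share of all genes without overlap is not given. Against CD24lo cells, the nearest lung population, the log2 fold change was 4.45 for *Krt17* (SE 0.16), 4.64 for *Krt15* (SE 0.23), 5.17 for *Krt5* (SE 0.26), 6.90 for *Krt14* (SE 0.28) and 7.06 for *Krt6a* (SE 0.33). *Krt75* differed by 9.43 (SE 0.30), on only 4 reads in CD24lo cells. An SE as computed here understates the counting error of so few reads. As shares of the BSC mean, CD24lo cells held 4.57% of *Krt17*, 4.00% of *Krt15* and 2.78% of *Krt5*, but 0.835% of *Krt14*, 0.755% of *Krt6a* and 0.131% of *Krt75*. The 6 keratins can thus be described as 3 that reached several percent of the BSC level in CD24lo cells and 3 that stayed under 1%.

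Against CD24hi cells the log2 fold change was 8.74 for *Krt5*, 8.83 for *Krt14*, 8.07 for *Krt15*, 7.31 for *Krt17* and 9.65 for *Krt6a*, with SEs of 0.19 to 0.41. These SEs understate the counting error of *Krt14* and *Krt6a*, which had 12 and 4 CD24hi reads. *Krt75* had 1 read in CD24hi cells, and its level in BSCs was 3837 times as high (counting interval 689 to 151583). Against alveolar cells the log2 fold change was 11.81 for *Krt5*, 11.59 for *Krt15*, 11.95 for *Krt17* and 10.08 for *Krt14*. Alveolar replicate 2 held 20 of the 30 alveolar *Krt5* reads and all 4 of *Krt14*. Without it the value of *Krt5* was 12.78, and *Krt14* had no alveolar read left to set a fold against. *Krt75* was at least 1041-fold higher in BSCs, against a limit of 3 reads over the 3 alveolar libraries. *Krt6a*, with 1 alveolar read, was 2787 times as high (500.1 to 110097). Against EpCAM-negative cells *Krt5*, *Krt15* and *Krt14* differed by 12.93, 12.29 and 9.99, and *Krt6a* and *Krt75* were at least 1090-fold and 1222-fold higher. *Krt17* had 3 EpCAM-negative reads and was 11164 times as high in BSCs (3820 to 54138).

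Non-basal tracheal cells were also above the lung populations in all 6 keratins. This held against CD24hi, CD24lo and alveolar cells, where 31.5%, 25.3% and 31.6% of all genes were called higher in the tracheal cells (68.4%, 53.1% and 64% in either direction). The libraries did not overlap for any of the 6, again without a share over all genes to set beside it. The size differed widely between the keratins against CD24lo cells. *Krt17* was higher by 0.93 (SE 0.14) and *Krt5* by 1.48 (SE 0.23) on the log2 scale, but *Krt15* by 3.58 (SE 0.22) and *Krt6a* by 4.46 (SE 0.36). *Trp63* did not differ at the threshold in the same comparison, at 0.45 (SE 0.25, adjusted p = 0.141 by edgeR's test), with 12.4 RPKM in non-basal cells and 9.08 RPKM in CD24lo cells. The basal markers *Aqp3*, a water channel gene, and *Dapl1* were higher in non-basal cells by 1.22 and 0.66. Not every basal marker went this way. *Snai2* was at 2.74 RPKM in CD24lo cells, above its level in non-basal cells, which held 9.05% of the 18.5 RPKM of BSCs.

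**Figure D5:**
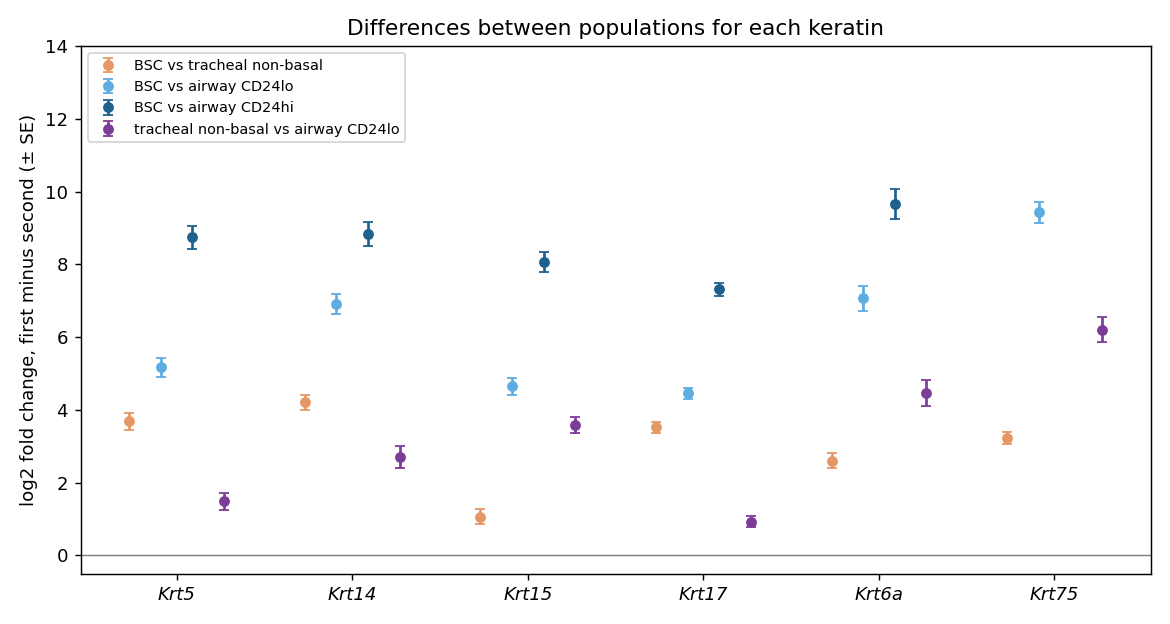
Log2 fold change (first population minus second, points, with SE bars) of each keratin in 4 comparisons, *Krt75* against CD24hi cells left out because only 1 read was counted there. The bars understate the counting error of values that rest on few reads. *Krt15* has the smallest difference between BSCs and non-basal cells, 1.07, while *Krt17* and *Krt5* have the smallest between non-basal and CD24lo cells, 0.93 and 1.48.

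The 2 airway populations of the lung were separated by the same keratins at a much lower level. *Krt5*, *Krt15* and *Krt17* were lower in CD24hi than in CD24lo cells by 3.58 (SE 0.26), 3.43 (SE 0.23) and 2.86 (SE 0.17) on the log2 scale, with adjusted p of at most 4.29e-09. *Krt14*, on 12 and 35 reads, and *Krt6a*, on 4 and 19, were also lower, with adjusted p of 0.00705 and 0.0181. *Krt75*, on 1 and 4 reads, did not pass (adjusted p = 0.140) and its libraries overlapped. Thus 5 of 6 were called, where 55% of all genes were called in either direction and 27.2% were lower in CD24hi cells. Without the library of CD24lo replicate 2, *Krt5*, *Krt15* and *Krt17* were still called and the count was 3. The *Krt6a* call was lost without any 1 of 4 libraries, CD24hi replicate 1 or 3 and CD24lo replicate 2 or 3 (adjusted p 0.0525 to 0.0882 by edgeR). CD24lo replicate 2 held the highest level of *Krt5*, *Krt14*, *Krt15* and *Krt17* of the 3, and of 7 of the 8 basal cell markers.

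Basal cell markers moved in the same direction between the airway populations, with 6 of 8 lower in CD24hi cells. For this and the other counts between these populations, 27.2% of all genes were lower in CD24hi cells and 55% called in either direction. *Trp63* was at 0.934 RPKM in CD24hi and 9.08 RPKM in CD24lo cells, and *Ngfr* at 0.310 and 2.81 RPKM. *Itgb4*, which encodes the CD104 of the gate, was instead higher in CD24hi cells, at 47.3 against 16.8 RPKM. As shares of the BSC mean, *Trp63* (9.30%), *Dapl1* (9.84%), *Ngfr* (7.08%) and *Aqp3* (6.53%) in CD24lo cells were above *Krt5*, *Krt15* and *Krt17*. The summed level of the 8 markers was 147 to 211 RPKM in CD24lo and 69.8 to 84.7 RPKM in CD24hi libraries. Markers of other cells differed too, with 4 of 5 smooth muscle and myoepithelial markers lower in CD24hi cells, the summed level of all 5 at 71.9 to 149 RPKM in CD24lo and 18.4 to 46.0 RPKM in CD24hi libraries, and *Acta2* at 57.8 and 14.5 RPKM. Their part in the keratin difference was not tested. Between CD24lo and alveolar cells all 6 keratins were called higher in CD24lo cells, where 24.2% of all genes were (48.4% in either direction). The call of *Krt75* there rests on 4 reads against 0 (adjusted p = 0.0434), its libraries overlapped, and it was lost under limma voom (0.0594) and DESeq2 (0.0631).

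Other keratins were compared between the tracheal populations to see whether the 6 members were typical. Of the remaining type I keratins, 5 of 17 tested were higher and 3 lower in BSCs, a share near the 48.2% of all genes called in either direction (21.9% higher). *Krt16* was higher by 3.14 (SE 0.52), from 0.636 to 5.65 RPKM, and *Krt13*, a suprabasal keratin, by 1.86 (SE 0.27), from 44.9 to 163 RPKM. *Krt18* and *Krt23* were lower by 1.01 and 1.81 on the log2 scale, and *Krt19* did not pass the test, at 1106 RPKM in BSCs and 1280 RPKM in non-basal cells, a log2 difference of -0.21 that plain library sizes turned to 0.14. Of the remaining type II keratins, 5 of 11 tested were higher and 2 lower, beside the same shares of all genes. *Krt6b*, the near copy of *Krt6a*, was higher by 2.01 (SE 0.32), and *Krt4*, the suprabasal partner of *Krt13*, by 0.71 (SE 0.18). *Krt7* was higher by 0.75 (SE 0.13), and *Krt8* was lower by 0.55 (SE 0.10), a call that was absent on plain library sizes (adjusted p = 0.0745). *Krt4* and *Krt13* were at 418 and 163 RPKM in BSCs and at 0.155 and 1.02 RPKM in CD24hi cells.

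Among 10 genes for regulators of keratin expression, 5 passed the test upward in BSCs and 1 downward relative to non-basal cells. Of all genes, 21.9% were called higher and 48.2% in either direction. The number called in either direction is thus not far from the background, while the number called higher is above it, on only 10 genes. These were chosen with earlier results of these data known, so the counts are no test. The list's median difference was 0.64 on the log2 scale, where that over all genes was -0.02. *Trp63*, a master regulator of stratified epithelium that acts on *Krt5* and *Krt14*, was higher by 2.97 (SE 0.26), from 12.4 to 97.6 RPKM. *Klf4*, a factor of epithelial differentiation, was higher by 1.76 (SE 0.16), from 70.5 to 240 RPKM. *Fosl1*, an AP-1 subunit, and *Grhl3* were higher by 1.34 and 1.25, and *Ovol1* was lower by 0.95. *Sox2* and *Nfe2l2* did not pass, with 84.6 against 71.2 RPKM and 160 against 162 RPKM. On plain library sizes without TMM, *Sox2*, *Nfe2l2*, *Klf5* and *Tfap2c* were called higher in BSCs as well.

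Of 10 genes whose proteins tie keratin filaments to cell junctions, 9 were higher and 1 lower in BSCs, against 21.9% of all genes higher and 48.2% called in either direction. The median log2 fold change of the list was 1.29. *Pkp1*, a desmosomal plaque gene of stratified epithelium, was higher by 3.07 (SE 0.13), from 8.89 to 74.5 RPKM, and *Pkp2*, its relative in simple epithelium, was lower by 1.07 (SE 0.09). *Dst* and *Plec*, which link keratins to hemidesmosomes, were higher by 2.13 and 1.46. *Dsp*, which anchors them at desmosomes, was higher by 1.52.

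Of 14 genes of stratification and the cornified envelope, 13 were tested, 10 were higher and 1 was lower in BSCs, against the same 21.9% and 48.2% of all genes. This list, too, was chosen with earlier results of these data known, and its counts are no test. The list's median log2 fold change was 1.86. *Sfn*, a 14-3-3 gene of stratified epithelium, was at 671 RPKM in BSCs and 203 RPKM in non-basal cells, and *Serpinb5* at 72.1 and 8.35 RPKM. *Lgals7* was higher by 4.28 (SE 0.38), and the late genes *Tgm1* and *Ivl* by 2.30 and 3.65, though *Ivl* reached no more than 1.08 RPKM in BSCs. *Krt1* and *Krt10*, the pair of the suprabasal epidermis, were at 1.79 and 1.86 RPKM in BSCs and did not pass the test, though they did with library size alone. *Sprr3*, the gene that was lower, stood at 0.175 against 0.489 RPKM and was not called with library size alone. *Krt1* and *Krt10* were thus far below *Krt5* and *Krt15* in the same cells.

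The genes whose pattern over the 18 libraries was most like that of each keratin, by Pearson's r of log2 CPM among 12218 genes that were not keratins, were *Aqp3* for *Krt5* and for *Krt17* (r = 0.992 for both) and *Fads2b* for *Krt15* (r = 0.992). They were *Dsg3*, a basal desmosomal cadherin, for *Krt75* (r = 0.989), *Usp53* for *Krt6a* (r = 0.988) and *Wnt10a*, which encodes a WNT ligand, for *Krt14* (r = 0.979). *Trim29* followed for *Krt5*, *Dsc2* for *Krt17* and *Pax9* came next after *Ces1h* for *Krt15*. *Dsg3* was at 14.6 RPKM in BSCs and 0.956 RPKM in non-basal cells, whereas *Pax9*, like *Krt15*, was less far apart, at 50.9 and 41.6 RPKM. Between the keratins themselves r ran from 0.841 for *Krt17* and *Krt75* to 0.990 for *Krt5* and *Krt17*. The points share 6 populations and 2 depths, so these values describe how the populations are ordered and are given without a test.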

How the data were processed

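RNA from 18 sorted samples was sequenced as 100-base single-end reads. The authors aligned the reads to the mouse genome mm10 with Rsubread and counted them per gene with its built-in RefSeq annotation, and the deposited values are whole-number counts with Entrez identifiers and gene lengths. The submitters' processing notes name bcl2fastq 1.8.4 and featureCounts. How reads matching several genes were handled is not given in the sources used here. Library totals are given with the levels, and counting intervals (95%) and limits of 3 counts cover counting error only.

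Symbols were taken from the RefSeq gene table of GRCm38.p6, which matched 25275 of 27179 identifiers. Genes above 0.2 CPM in at least 3 libraries were kept, 17989 in all. Counts were tested with edgeR 4.0.16 (TMM, quasi-likelihood, Benjamini-Hochberg adjustment over all genes, threshold 0.05) in 1 fit of all 18 libraries under R 4.3.3, where the study's methods used limma voom. RPKM was computed from counts, deposited lengths and TMM-scaled library sizes. SE is the absolute log2 fold change over the square root of F, and it understates the counting error where reads are few. Shares and ratios were compared by exact permutation tests. Tested on simulated counts for BSC against non-basal cells over 17989 genes, the test recovered 81 of 100 genes changed 2-fold and 99 of 100 changed 4-fold, with 10 false calls. Changed genes were drawn above a minimum expected count, the rest were equal between these 2 populations, and libraries were independent. In the data 48.2% of genes were called and libraries shared mice, so these rates need not hold there.

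BSC and non-basal samples came from the same mice by label, and deviations from the group means correlated in each mouse (lowest r = 0.117), so a fit with the mouse as a block was an alternative. For the lung populations the lowest r lay between -0.0593 and 0.0439. The lowest chi-square per degree of freedom between replicates was 3.50, so no library was counted as a repeat of another.

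The 6 keratins and all gene lists were chosen with earlier results of these data known. Genes named are the 6 keratins, list genes that passed the test with the highest RPKM first, defining markers near 0, and for each keratin the 3 non-keratin genes of highest correlation (prior count 2, at least 10 CPM in some population). Other named list genes were chosen after their values were seen. Alternatives were limma voom (3.58.1), DESeq2 (1.42.0), size factors by RLE, plain library sizes, a stricter CPM minimum of 1 or none, fits of 2 populations with and without the block, thinned tracheal libraries, and leaving out each library. Pairing the BSC and non-basal ratios by mouse was chosen after seeing the data. Coding sequences were aligned with Biopython 1.88 under Python 3.11.15.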

Additional observations from a re-analysis of the deposited data

How the results depend on the processing

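No call of a single keratin reversed under any alternative run, and all 6 keratins stayed higher in BSCs than in each other population. Leaving out 1 library at a time gave 3 to 5 keratins called between CD24hi and CD24lo cells, 3 without CD24lo replicate 2, where *Krt14* had an adjusted p of 0.0502 and *Krt6a* 0.0602 by edgeR. It gave 5 to 6 called between CD24lo and alveolar cells. There the *Krt75* call, on 4 reads against 0, was lost under 10 alternatives (adjusted p 0.0546 to 0.206), and the log2 fold change of *Krt14* ran from 2.58 to 3.45 without single libraries, leaving aside the fit without alveolar replicate 2, which held all 4 of its alveolar reads. With library size alone, non-basal cells held 6.14% of the BSC level of *Krt5*, 37.4% of *Krt15*, 6.92% of *Krt17* and 8.43% of *Krt75*, and over all genes the median difference between the 2 moved on the log2 scale from -0.02 to 0.31. As shares of read counts, which are not divided by gene length, the difference between BSCs and non-basal cells was 46.4 percentage points for *Krt5* and 1.22 for *Krt75*. With the mouse as a replicate block 11531 genes were called between BSC and non-basal cells, 10407 in the fit of these 2 populations without the block and 8668 in the fit of all 18 libraries. In fits of 2 populations the *Krt75* call between CD24lo and alveolar cells was lost without the block (adjusted p 0.130) and with it (0.206), and the block changed no keratin call beyond such fits without it. Depth limits values in the lung, where *Krt6a* and *Krt75* rest on fewer than 20 reads over 3 libraries.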
